A study of Mus musculus with 4 samples.

Results

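The genes described here encode the AP-1 transcription factors of the FOS family (Fos, Fosb, Fosl1 and Fosl2) and of the JUN family (Jun, Junb and Jund), together with Atf3. These 8 genes were taken by name, as AP-1 factors and Atf3, with earlier results of these data known. Their chromatin loops were found by position: an anchor of the loop lay within 10 kb of the gene body in mm10, or the loop spanned under 500 kb and enclosed the gene. The rule gave 18 distinct loops of 12942 in the series, which were entered 39 times in the 4 loop lists, and no loop belonged to more than 1 of the genes.

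Loops were called from Micro-C, which maps contacts between distant chromatin sites after digestion with micrococcal nuclease. The hCG group is granulosa cells of mice aged 21 days, given 5 IU of equine chorionic gonadotropin (eCG, or PMSG) to drive follicle growth and then 5 IU of human chorionic gonadotropin (hCG), an agonist of the luteinizing hormone (LH) receptor, with collection at 6 h. The PMSG group is granulosa cells of mice of the same age given 5 IU of eCG alone and collected at 0 h of hCG. The time on eCG is 46 h in one field of the labels and 44 h in another, and no strain is given. Each group had 2 libraries. Cells were released by puncturing ovaries, and technical replicates of a sample were combined in its list. Nothing in the labels ties the libraries of a group to different mice, and the p-values below then measure only the spread between these libraries, which may be technical.

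AP-1 is a dimer of basic leucine zipper (bZIP) proteins. JUN proteins pair with FOS proteins or with each other, FOS proteins need a JUN partner, and ATF3 is a related bZIP protein that pairs with JUN proteins and is induced by stress and by hormones acting through cyclic AMP. The genes of this family are classical immediate-early genes, and in rat granulosa cells several of them are induced by the LH surge. The lists hold contacts and no RNA, so nothing below is a measure of expression.

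The start site of 3 of the genes, Atf3, Fosl2 and Jun, was covered by a loop anchor in 1 or more libraries, and that of Fos was not, although Fos lay close to a loop found in every library. The promoter sequences of these 4 genes are shown because those of Atf3, Fosl2 and Jun lie inside loop anchors described below, with Fos as the contrast. Each is the 250 bases before the annotated start on the gene's own strand, from RefSeq on GRCm38.p6, the assembly of mm10. Capitals mark TGANTCA (the short consensus AP-1 site), and TGACNTCA and TGACGT (a cyclic AMP response element with 1 free base, and its first part). They also mark the CCAAT box, the TATA box (TATAAA) and the CArG box of serum response factor. Each motif was searched on both strands.
Atf3, chr1:191183334-191183583, minus strand: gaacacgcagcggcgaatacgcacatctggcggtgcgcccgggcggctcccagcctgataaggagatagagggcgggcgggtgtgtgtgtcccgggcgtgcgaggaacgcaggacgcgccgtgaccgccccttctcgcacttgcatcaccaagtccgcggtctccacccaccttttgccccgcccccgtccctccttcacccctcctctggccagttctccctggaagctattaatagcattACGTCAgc
Fosl2, chr5:32136222-32136471, plus strand: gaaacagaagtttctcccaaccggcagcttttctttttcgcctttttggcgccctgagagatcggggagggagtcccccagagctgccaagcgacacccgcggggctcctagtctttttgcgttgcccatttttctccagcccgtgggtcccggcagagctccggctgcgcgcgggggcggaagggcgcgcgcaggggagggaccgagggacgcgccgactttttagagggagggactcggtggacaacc
Jun, chr4:95052223-95052472, minus strand: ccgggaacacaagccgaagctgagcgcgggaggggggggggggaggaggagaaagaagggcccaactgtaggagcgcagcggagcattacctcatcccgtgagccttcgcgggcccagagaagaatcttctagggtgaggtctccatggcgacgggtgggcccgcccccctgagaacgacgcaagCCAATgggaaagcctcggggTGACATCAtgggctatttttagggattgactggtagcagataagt
Fos, chr12:85473640-85473889, plus strand: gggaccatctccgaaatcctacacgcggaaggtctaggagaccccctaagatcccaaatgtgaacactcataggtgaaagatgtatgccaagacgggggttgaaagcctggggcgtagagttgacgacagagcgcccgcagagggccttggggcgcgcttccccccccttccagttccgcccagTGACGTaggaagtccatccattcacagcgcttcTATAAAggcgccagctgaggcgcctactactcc

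The Jun promoter held TGACNTCA, which is in 7.49% of 32851 mouse promoters of this length, and CCAAT, which is in 33.8%. The promoters of Fos and Atf3 held TGACGT, on opposite strands, which is in 6.47% of promoters and overlaps TGACNTCA where both occur. Fos also held TATAAA, found in 12.4% of promoters. The Fosl2 window held no match to any of these motifs. None of the 4 windows held TGANTCA (6.75% of promoters), the full TGACGTCA (1.55%) or the CArG box (1.47%). Sequence outside these short windows was not searched, so a motif missing from a window may still lie farther from the start. A match is a run of letters and was not tested as a binding site. Whether AP-1 binds TGACNTCA or other sequences in these windows was not tested either. Of the 8 genes, 7 have an entry in the promoter table, and Fosl1 has none.

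The 4 lists held 7664 and 7935 loops in the hCG libraries and 8305 and 6533 loops in the PMSG libraries. At 435 pixels called in every library, the median locally expected contact signal relative to PMSG replicate 1 was 0.592 in hCG replicate 1, 0.744 in hCG replicate 2 and 0.623 in PMSG replicate 2, so PMSG replicate 1 was the deepest library. Markers of granulosa cells had a loop at 9 of 9 genes, those of theca and stroma at 7 of 7, of endothelium at 4 of 5, of leukocytes at 3 of 4 and of oocytes at 3 of 4, against 68.0% of all protein-coding genes. An hCG-only loop, as defined below, was at 3 granulosa, 2 theca and stroma, 1 endothelial, 0 leukocyte and 0 oocyte markers, and a PMSG-only loop at 2, 3, 1, 1 and 0, against 6.67% and 5.40% of all genes. The share of other cells in the libraries and its part in the loops was not tested.

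Of the 8 genes, 7 had a loop in 1 or more libraries, and 4, namely Fos, Fosb, Fosl2 and Jun, had a loop in every library. By the same rule, 68.0% of 21631 protein-coding genes had a loop. The median was 2.5 distinct loops per AP-1 gene and 1 per protein-coding gene. Jund had none. The number of loops at the 8 genes was 12 and 11 in the hCG libraries and 9 and 7 in the PMSG libraries. Per 1000 loops of the list this was 1.57 and 1.39 in hCG and 1.08 and 1.07 in PMSG, or 1.48 ± 0.127 in hCG and 1.08 ± 0.00863 in PMSG (SD, n = 2), a difference of 0.398. Both hCG values were above both PMSG values, but the exact permutation test over libraries (two-sided) gave p = 0.333, which is the smallest p that 2 libraries against 2 allow.

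**Figure D1:**
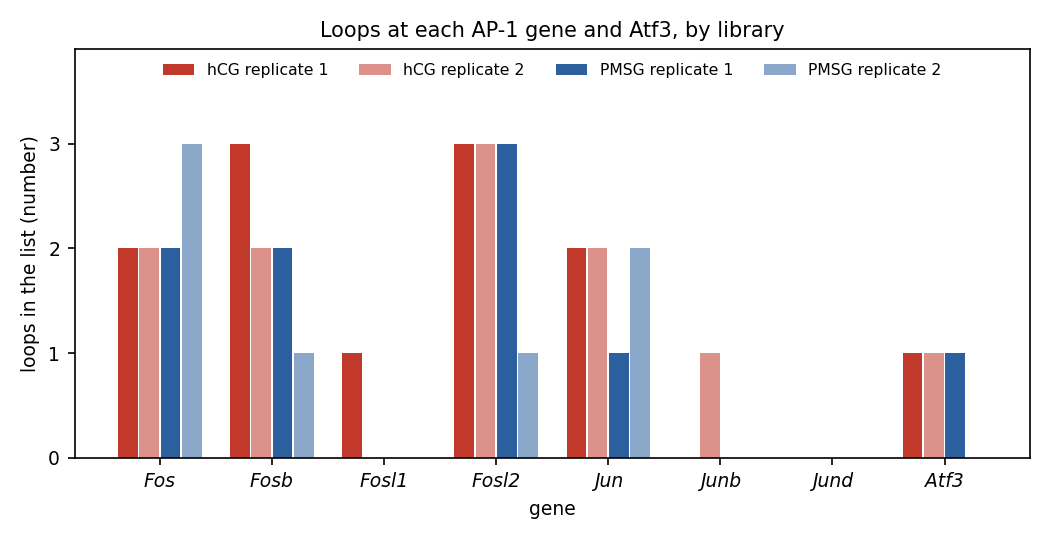
Number of called loops (vertical axis) at each gene (horizontal axis) in hCG replicate 1, hCG replicate 2, PMSG replicate 1 and PMSG replicate 2, as bars from left to right. Fos, Fosb, Fosl2 and Jun have a bar in each library, Fosl1 and Junb in 1 hCG library each, Atf3 in 3 libraries, and Jund in none.

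The lists were then compared to ask which loops at these genes were specific to a group. Loops of different lists were matched where both anchor midpoints lay within 20 kb. A loop is named hCG-only if both lists of the hCG group and no list of the PMSG group held it, and PMSG-only in the reverse case. Absence from a list means that the caller passed no pixel there, not that there was no contact. Among the 18 loops, 3 were hCG-only, 1 was PMSG-only, 4 were in all 4 lists and 10 had another pattern, 7 of them in 1 list. Over all 12942 distinct loops, 5.05% were hCG-only, 3.79% PMSG-only, 29.8% in all 4 lists and 40.1% in 1 list. The hCG-only loops were at Fosl2 (2 loops) and Atf3 (1 loop), and the PMSG-only loop was at Fosl2, so 2 of 8 genes had an hCG-only and 1 of 8 a PMSG-only loop. Of all protein-coding genes, 6.67% had an hCG-only and 5.40% a PMSG-only loop. A loop of all 4 lists was at 3 of the 8 genes, Fos, Fosb and Jun, and at 36.5% of protein-coding genes. Fosl2 was among the 157 protein-coding genes (0.726%) with both an hCG-only and a PMSG-only loop. With a library left out a class rests on fewer lists, and the number of hCG-only loops was then 5 without PMSG replicate 1, 3 without PMSG replicate 2, 4 without hCG replicate 1 and 7 without hCG replicate 2. PMSG-only loops then numbered 2, 3, 1 and 1. Over all distinct loops the hCG-only share was 12.3%, 7.02%, 17.6% and 17.5% in these settings, and the PMSG-only share was 12.3%, 17.5%, 7.02% and 8.09%.

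Fosl2, which encodes FRA2, had the most distinct loops of the 8 genes. With matching within 20 kb it held 3 of the 4 loops that were hCG-only or PMSG-only. The gene lies on the plus strand at 32136472 to 32157840 of chromosome 5 (mm10). It had 3 and 3 loops in the hCG libraries and 3 and 1 in the PMSG libraries, 5 distinct loops in all. The anchor at the gene covered its start in 1 or more libraries for each of them. A loop from the gene to a site past its end was called in the hCG lists alone. In hCG replicate 1 it joined 32140001 to 32150000 with 32190001 to 32200000, and in hCG replicate 2 it joined 32130001 to 32140000 with the same site. The contact count was 35 and 39 in the hCG libraries against 11.4 and 12.9 expected from the surrounding donut of pixels, a ratio of 3.07 and 3.01 in 10 kb bins. These ratios lay at the 23.2 and 25.9 percentile of loops of that bin size in their libraries. No protein-coding gene lay within 10 kb of the downstream site.

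The downstream site was an anchor in every library. A wider loop of 630 kb, from 31560001 to 31570000 to the same 32190001 to 32200000, ran over Fosl2 in all 4 lists and was outside the 500 kb limit of the rule. It had 41 and 33 contacts in the hCG libraries against 8.08 and 9.68 expected, and 60 and 35 in the PMSG libraries against 16.9 and 7.12 expected, all in 10 kb bins. The ratios were 5.07 and 3.41 in hCG and 3.56 and 4.92 in PMSG, so the groups overlapped. A loop of 600 kb to the site was called in hCG replicate 2, with 33 contacts against 9.72 expected, and in PMSG replicate 1, with 49 against 17.4 expected.

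Upstream, Fosl2 met sites in and beside Babam2, a subunit of deubiquitinating complexes, and Rbks, the ribokinase gene. The hCG lists had a loop to 31700001 to 31725000 in a 25 kb bin of replicate 1, with 107 contacts against 40.4 expected, and to 31700001 to 31710000 in a 10 kb bin of replicate 2, with 32 against 7.83. The PMSG lists had a loop to 31740001 to 31750000 in a 10 kb bin of replicate 1, with 40 contacts against 12.01 expected, and to 31725001 to 31750000 in a 25 kb bin of replicate 2, with 80 against 31.4. In 25 kb bins the ratio was 2.65 in hCG replicate 1 and 2.55 in PMSG replicate 2, and in 10 kb bins it was 4.09 in hCG replicate 2 and 3.33 in PMSG replicate 1. The spans were 425 and 430 kb in hCG and 390 and 400 kb in PMSG. The 25 kb anchors of hCG replicate 1 and PMSG replicate 2 were adjacent bins, while the 10 kb anchors of hCG replicate 2 and PMSG replicate 1 were not. Midpoints of adjacent 25 kb bins are 25 kb apart, so the 20 kb limit could not match these 2 calls directly. With matching within 50 kb the hCG-only and PMSG-only loops became 1 loop of all 4 lists.

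Farther upstream, a loop of 510 to 540 kb between the Fosl2 start and the neighbourhood of Rbks and the mitochondrial ribosomal protein gene Mrpl33 was in 3 lists. hCG replicate 1 had 26 contacts against 7.53 expected (10 kb bin), and hCG replicate 2 had 116 against 53.6 (25 kb bin). PMSG replicate 1 had 44 against 16.0 in a 10 kb bin, and PMSG replicate 2 had no call. The upstream anchors were 31590001 to 31600000 in hCG replicate 1 and 31620001 to 31630000 in PMSG replicate 1. Their midpoints were more than 20 kb apart, and they were joined only through 31600001 to 31625000 of hCG replicate 2. No call linked the hCG-only and PMSG-only upstream loops in this way, so they were kept apart. In hCG replicate 1 no protein-coding gene lay within 10 kb of the upstream anchor. PMSG replicate 1 alone had a loop of 300 kb to 31825001 to 31850000 in Babam2, with 136 contacts against 66.8 expected.

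**Figure D2:**
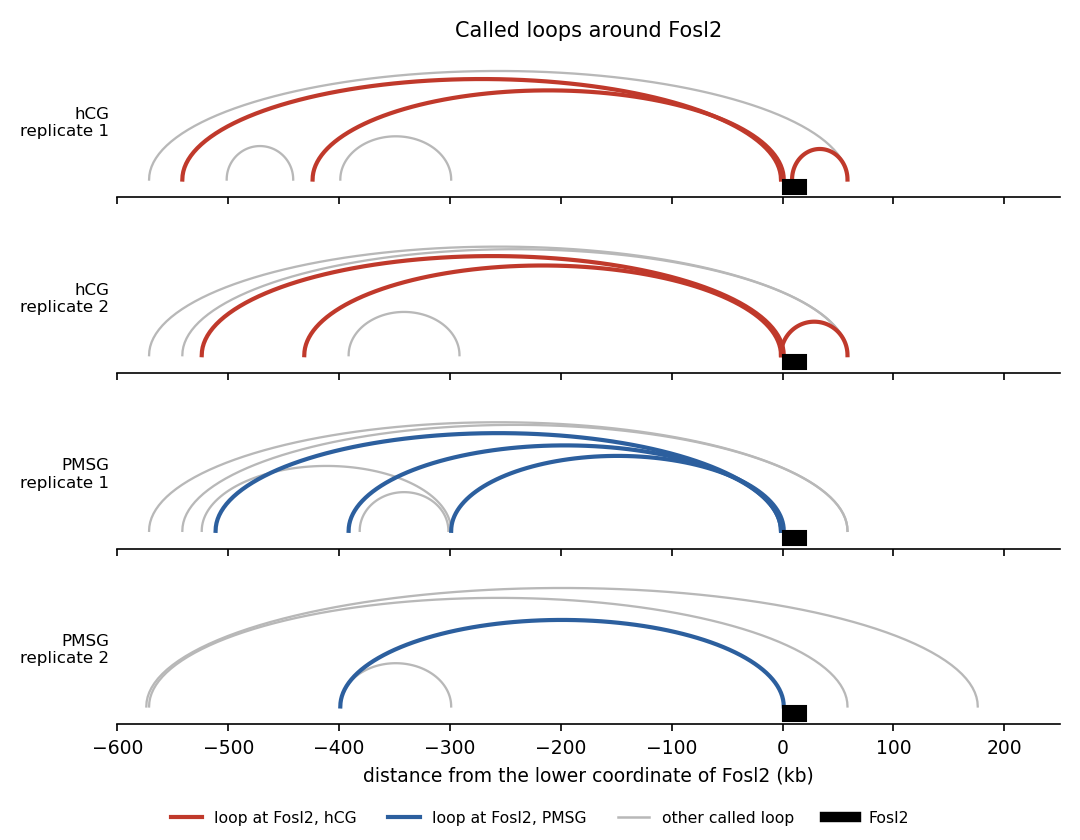
Called loops around Fosl2 as arcs between anchor midpoints, in hCG replicates 1 and 2 and PMSG replicates 1 and 2 from top to bottom, over distance from the lower coordinate of the gene (kb). The height of an arc grows with its span and has no unit. Coloured arcs are loops of Fosl2 and grey arcs other loops. The short arc from the gene to a site past its end is drawn in both hCG libraries, and the grey arc that ends at the same site in all 4.

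Atf3 had a loop from its start in the hCG lists alone. The gene lies on the minus strand at 191170296 to 191183333 of chromosome 1, so the loop runs upstream. In both hCG libraries it joined 191175001 to 191200000 with 191275001 to 191300000, a span of 100 kb in 25 kb bins. The contact count was 108 and 152 in the hCG libraries against 45.3 and 60.5 expected, a ratio of 2.38 (95% exact Poisson interval, counting error only, 1.95 to 2.88) and 2.51 (2.13 to 2.94). These ratios lay at the 35.6 and 48.6 percentile of loops in 25 kb bins of the same libraries. Neither PMSG list had an anchor within 10 kb of Atf3, and the nearest anchors were 70.3 and 90.3 kb away. Nenf, which encodes the secreted protein neudesin, lay within 10 kb of the upstream anchor and did not overlap it.

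The same upstream anchor was used in PMSG replicate 1 by a loop that passed over Atf3. It joined 191075001 to 191100000, beside Nsl1, a kinetochore gene, and Batf3, a bZIP partner of JUN proteins, with 191275001 to 191300000. It had 95 contacts against 47.0 expected, a ratio of 2.02 (exact Poisson interval 1.64 to 2.47), and enclosed Fam71a and Atf3. PMSG replicate 2 had neither loop. The hCG-only class of the Atf3 loop held in each of 8 settings of gene distance, matching, FDR and list length. Its anchor overlapped the gene, and both hCG libraries called the identical pixel, with highest FDR values of 8.1e-06 and 3.6e-11. The changes of gene distance, leaving out enclosing loops, the narrower matching, matching by overlap and the FDR limit could thus not have altered the class. The nearest PMSG anchors lay 70.3 and 90.3 kb from Atf3, so matching within 50 kb could not join a PMSG loop to it. Lists of equal length could only remove calls. The 8 settings therefore add no support for the class. Loops on both sides of Atf3 were in all 4 lists. By anchor midpoints, measured from the lower coordinate of the gene, 1 of them ended at -105 to -92.8 kb and another began at 222 to 225 kb.

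**Figure D3:**
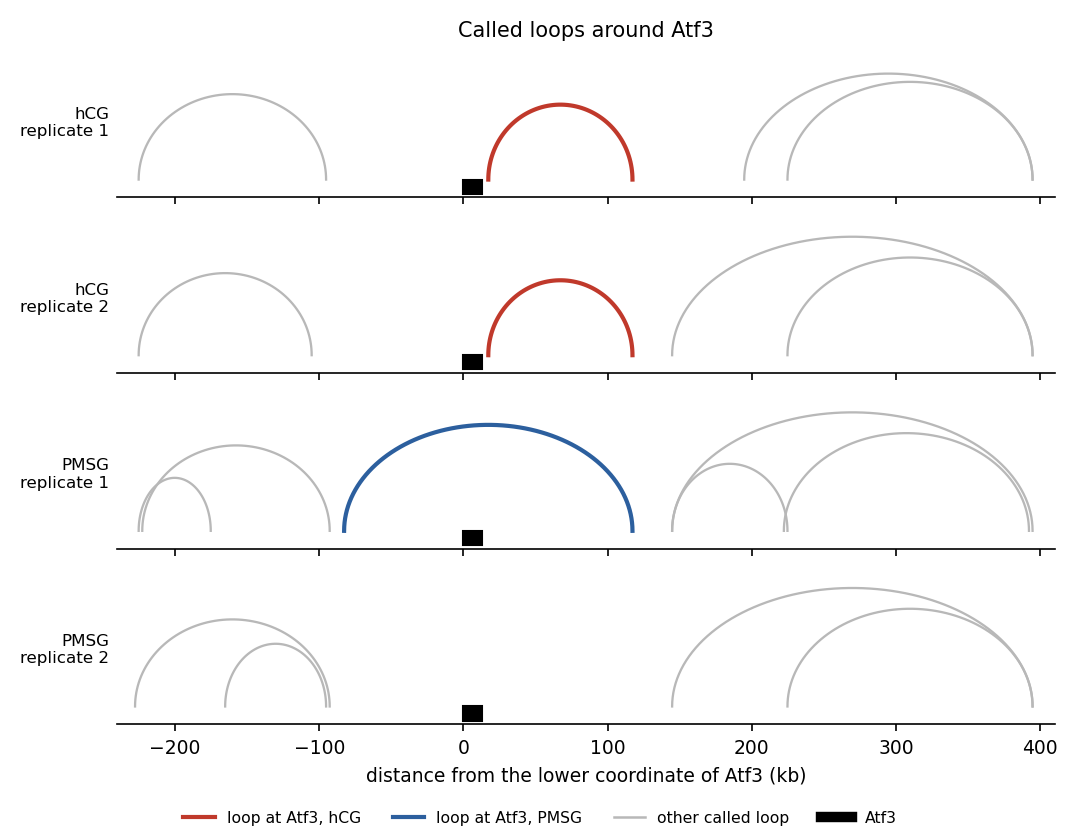
Called loops around Atf3 as arcs between anchor midpoints, in hCG replicates 1 and 2 and PMSG replicates 1 and 2 from top to bottom, over distance from the lower coordinate of the gene (kb). The height of an arc grows with its span and has no unit. Both hCG libraries have a coloured arc from the gene to the upstream anchor, PMSG replicate 1 has a wider coloured arc over the gene to the same anchor, and PMSG replicate 2 has no coloured arc.

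Fos, the gene of the founding FOS protein, had its main loops in every library. It lies on the plus strand at 85473890 to 85477274 of chromosome 12. A loop of 140 kb was called at the identical 5 kb pixel in all 4 lists and joined 85345001 to 85350000, inside the cargo receptor gene Tmed10 and within 10 kb of the kinase gene Nek9, with 85485001 to 85490000. Its anchor lay 7726 bases past the end of Fos and did not overlap the gene, which lay inside the loop. The contact count was 34 and 36 in the hCG libraries against 4.20 and 4.92 expected, and 41 and 27 in the PMSG libraries against 7.23 and 3.64 expected. The observed over expected ratio was 8.09 and 7.32 in hCG and 5.67 and 7.41 in PMSG, so the groups overlapped, with PMSG replicate 1 lowest.

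A second loop enclosed Fos together with Jdp2, which encodes a bZIP repressor that binds AP-1 sites. It ran from the Nek9 and Tmed10 region to a site between 85650001 and 85675000, past Jdp2. In 10 kb bins it had 24 contacts against 5.46 expected in hCG replicate 2 and 32 against 8.30 in PMSG replicate 1. In 25 kb bins it had 62 against 24.7 in hCG replicate 1 and 67 against 20.8 in PMSG replicate 2. At equal bin size the ratio was thus 4.40 in hCG and 3.86 in PMSG for 10 kb, and 2.51 in hCG and 3.23 in PMSG for 25 kb, which run in opposite directions. This loop was no longer in all 4 lists where FDR had to be at most 0.01 or where the lists were shortened to equal length.

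Another loop of all 4 lists fell just outside the rule, its near anchor starting 17.7 or 22.7 kb past the end of Fos. It had 32 and 18 contacts in the hCG libraries against 7.25 and 2.06 expected, and 22 and 34 in the PMSG libraries against 3.98 and 6.88. PMSG replicate 2 alone had a loop of 110 kb from 85370001 to 85380000 to 85480001 to 85490000, with 43 contacts against 9.85 expected. Fos thus had these 3 loops in or next to its interval in every library, and no hCG-only or PMSG-only loop by the rule.

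Fosb, the gene of a second FOS family activator, lies on the minus strand at 19302696 to 19310118 of chromosome 7, with 12 other protein-coding genes within 100 kb. A loop of 40 to 45 kb joined the end of the gene, or the bin beside it, to Ercc1, a subunit of a DNA repair nuclease, in 5 kb bins of all 4 lists. The anchor at Fosb was 19300001 to 19305000 in both hCG libraries and PMSG replicate 2, and the neighbouring bin, 19295001 to 19300000, 2695 bases from the gene, in PMSG replicate 1, with 19340001 to 19345000 as the partner in each. Where matched anchors had to overlap, this loop was no longer in all 4 lists. The contact count was 24 and 47 in the hCG libraries against 4.54 and 5.59 expected, and 42 and 32 in the PMSG libraries against 7.81 and 3.85. The ratio was 5.29 and 8.41 in hCG and 5.38 and 8.30 in PMSG, so each group held a low and a high library.

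On the other side, a loop of 100 kb from Eml2, a microtubule-associated protein gene, and Gipr, the receptor gene of an incretin hormone, ended 2695 bases from Fosb. It was called in 25 kb bins of 3 lists, with 94 and 124 contacts in the hCG libraries against 47.2 and 63.9 expected, and 203 in PMSG replicate 1 against 102 expected. The ratios, 1.99 and 1.94 in hCG and 2.00 in PMSG, lay at the 6.91 and 4.62 percentile in hCG and the 6.61 percentile in PMSG among loops of that bin size. hCG replicate 1 alone had a loop of 60 kb between Opa3 and the same side of Fosb, with 32 contacts against 10.3 expected.

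Jun, the gene of the founding JUN protein, lies on the minus strand at 95049036 to 95052222 of chromosome 4. It had an upstream loop of 100 to 110 kb in every list, and the anchor at the gene covered its start each time. No protein-coding gene lay within 10 kb of the partner anchor. The bin size differed between the lists. In 10 kb bins, hCG replicate 1 had 37 contacts against 9.32 expected and PMSG replicate 2 had 30 against 9.16, a ratio of 3.97 in hCG (exact Poisson interval 2.79 to 5.47) and 3.28 in PMSG (2.21 to 4.68). hCG replicate 2 had 173 contacts against 71.7 in a 25 kb bin, and PMSG replicate 1 had 23 against 5.44 in a 5 kb bin, which cannot be set beside each other.

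A longer loop of 500 kb from the Jun start to Fggy, a carbohydrate kinase gene, was called in 1 library of each group at the identical 10 kb pixel. It had 26 contacts against 7.40 expected in hCG replicate 2 and 23 against 4.55 in PMSG replicate 2. The ratio was 3.51 in hCG (exact Poisson interval 2.29 to 5.15) and 5.05 in PMSG (3.20 to 7.58), and the intervals overlapped. hCG replicate 1 alone had a loop of 225 kb from Jun, with 90 contacts against 41.2 expected.

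**Figure D4:**
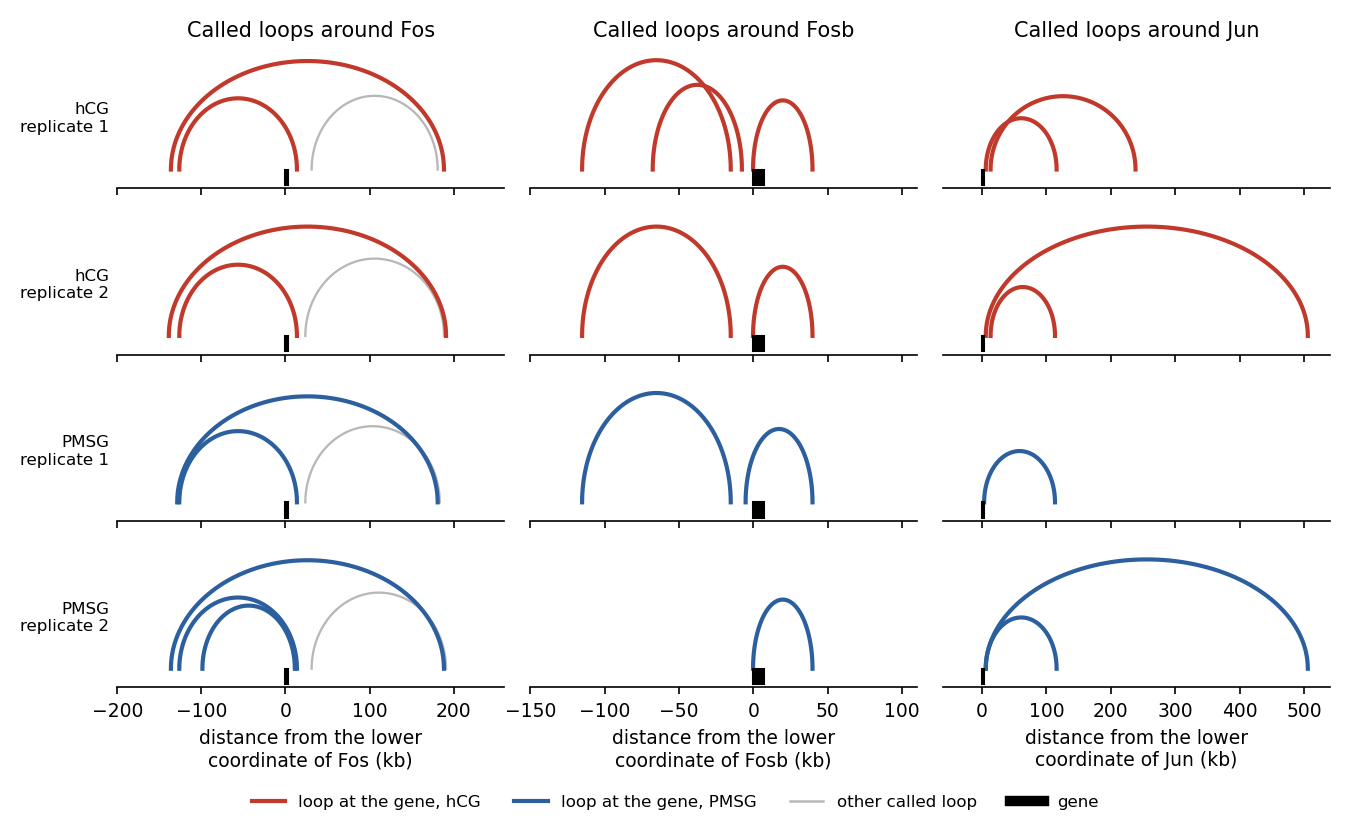
Called loops around Fos, Fosb and Jun (columns) as arcs between anchor midpoints, in hCG replicates 1 and 2 and PMSG replicates 1 and 2 from top to bottom, over distance from the lower coordinate of each gene (kb). Arc height grows with span and has no unit. Each gene has a coloured arc found in every library: 140 kb long at Fos, 40 to 45 kb at Fosb and 100 to 110 kb at Jun.

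Fosl1, Junb and Jund had few or no called loops. Fosl1, which encodes FRA1, had a loop of 50 kb in hCG replicate 1 alone. It ran from 5430001 to 5440000 to 5480001 to 5490000 on chromosome 19, where Efemp2 and Mus81 lie, with 36 contacts against 13.7 expected. In hCG replicate 2 the nearest anchor of any loop was 64.1 kb from Fosl1, and in the PMSG libraries it was 74.1 and 274 kb away. Junb, a JUN family member that is a weaker activator than Jun, had a loop of 120 kb in hCG replicate 2 alone. It joined 84840001 to 84850000 on chromosome 8, where Calr lies, with 84960001 to 84970000, with 27 contacts against 7.82 expected. The nearest anchor to Junb was 96.3 kb away in hCG replicate 1 and 41.3 and 96.3 kb away in the PMSG libraries. Jund, the most broadly expressed JUN gene, had its nearest anchor at 198 and 188 kb in the hCG libraries and at 97.7 and 188 kb in the PMSG libraries.

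These 3 genes lie among many others: 16 protein-coding genes were within 100 kb of Fosl1, 17 of Junb and 13 of Jund. Within the same distance Fos and Jun had 1 neighbour each, Fosl2 had 2, Atf3 had 3 and Fosb had 12. Fosb was thus the only one of the 4 genes with 12 or more neighbours to have a loop in every list, which describes 8 genes and was not tested.

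Of the 16 loops with an anchor near a gene, the anchor covered the annotated start in 1 or more libraries for 9, all at Fosl2, Jun and Atf3, and overlapped the gene for 10. The loops of the AP-1 genes had a median span of 105 and 120 kb in the hCG libraries and 200 and 140 kb in the PMSG libraries. The means were 113 ± 10.6 kb in hCG and 170 ± 42.4 kb in PMSG (SD, n = 2), a difference of -57.5 kb (exact permutation test over libraries, two-sided, p = 0.333, the smallest possible). Over all loops the medians were 150 and 160 kb in hCG and 175 and 195 kb in PMSG, a difference of -30 kb. The difference at the AP-1 genes was -27.5 kb without PMSG replicate 1, -87.5 kb without PMSG replicate 2, and -27.5 kb with the enclosing loops left out.

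The strength of a loop was next compared between the groups as the observed over expected ratio. The median log2 ratio over the loops of the AP-1 genes was 1.51 and 1.79 in the hCG libraries and 1.74 and 2.13 in the PMSG libraries, a difference of -0.28 with overlapping groups (exact permutation test over libraries, two-sided, p = 0.667). Over all loops it was 1.99 and 1.97 in hCG and 1.88 and 2.06 in PMSG. Ratios are lower in larger bins, and the AP-1 genes had 2 and 2 loops in 5 kb bins, 5 and 5 in 10 kb bins and 5 and 4 in 25 kb bins in hCG, against 3 and 2, 3 and 3, and 3 and 2 in PMSG. The difference was -0.09 without PMSG replicate 2 and 0.12 with the vertical expectation.

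Loops called in all 4 lists at 1 bin size could be tested. There were 1366, and the AP-1 genes had 2 of them, the 140 kb loop of Fos and the 40 to 45 kb loop of Fosb. In edgeR's quasi-likelihood test on the contact counts, with the donut expectation as offset, the log2 fold change of hCG over PMSG at the Fos loop was 0.29 (SE 0.235, adjusted p = 0.876 over all 1366 loops). At the Fosb loop it was 0.14 (SE 0.26, edgeR adjusted p = 0.945). The median over all loops tested was 0.15, between the values of these loops. No loop of the 1366 passed an adjusted 0.05 (0%) in edgeR or in DESeq2, while 91 (6.66%) had an unadjusted edgeR p under 0.05. Left-out libraries gave 12 calls without PMSG replicate 2, 2 without either hCG library and 0 without PMSG replicate 1. Without PMSG replicate 1 the values were 0.05 at Fos and -0.24 at Fosb, without PMSG replicate 2 they were 0.43 and 0.38, without hCG replicate 1 they were 0.22 and 0.38, and without hCG replicate 2 they were 0.36 and -0.27. The direction at Fosb thus depended on the library left out.

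**Figure D5:**
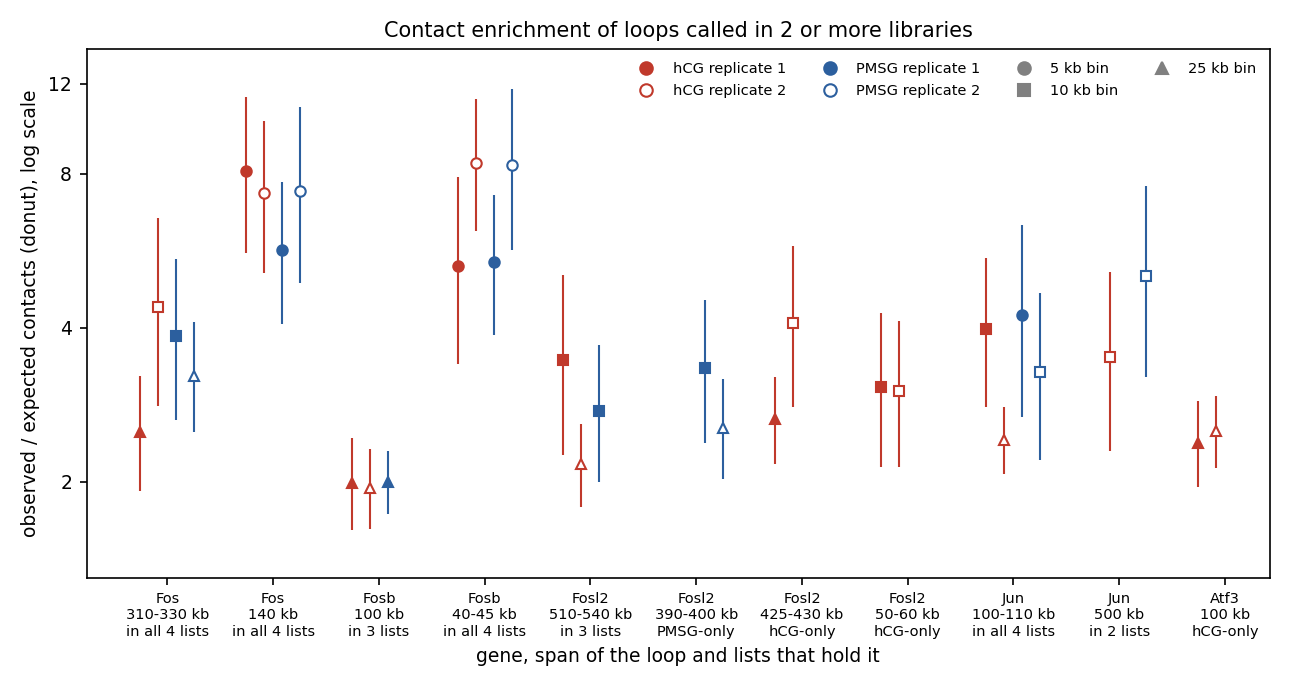
Observed over expected (donut) contacts, on a log scale, of the 11 AP-1 gene loops called in 2 or more libraries, with the gene, span and lists below each. Red is hCG and blue PMSG, filled replicate 1 and open replicate 2, and the marker shape is the bin size. Bars are 95% exact Poisson intervals of the contact count. The Fos and Fosb loops in 5 kb bins reach 5.29 to 8.41 and overlap between the groups.

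Genes that work with AP-1 were counted by the same rule, from lists drawn up with earlier results of these data known. Of all protein-coding genes, 68.0% had a loop, 36.5% a loop of all 4 lists, 6.67% an hCG-only and 5.40% a PMSG-only loop, and none of the lists was tested against these shares. Of 16 bZIP relatives and dimer partners, 12 had a loop and 6 had a loop of all 4 lists, shares near those of all genes. An hCG-only loop was at 2 of the 16 and a PMSG-only loop at 0. The hCG-only loops had an anchor within 10 kb of Atf5, a stress-response factor, and of Mafg, a small MAF protein. An anchor overlapped Atf5 in hCG replicate 2 alone. No anchor overlapped Mafg, and in both hCG libraries an anchor overlapped Pcyt2 and Sirt7 instead. At Mafg the loop spanned 100 kb. hCG replicate 1 had 127 contacts against 50.8 expected (25 kb bin), and hCG replicate 2 had 39 against 13.96 (10 kb bin). Jdp2 had 2 loops in every library, among them the loop that encloses it together with Fos. Batf, a partner of JUN proteins, had no loop.

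In the cascade that phosphorylates JUN, 5 of 6 genes had a loop (68.0% of all genes), and 2 of the 6, the kinases Map2k4 and Map3k1, had an hCG-only loop (6.67% of all genes). Map2k4, which activates JUN N-terminal kinases, had 112 and 124 contacts in the hCG libraries in a 100 kb loop, where 53.5 and 61.0 were expected. Map3k1, an upstream kinase, had an hCG-only loop of 275 and 270 kb in the hCG libraries and a PMSG-only loop (5.40% of all genes) of 280 and 290 kb in the PMSG libraries, on opposite sides of the gene. The PMSG-only loop had 40 and 29 contacts against 11.5 and 7.83 expected. Mapk10 had no loop.

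All 6 genes of the serum response factor group, which carry growth factor signals to the Fos promoter, had a loop, and 3 of the 6, the ternary complex factors Elk1, Elk3 and Elk4, had an hCG-only loop, with 0 at a PMSG-only loop. Elk4 had 39 and 50 contacts in 10 kb bins of the hCG libraries, where 11.6 and 16.5 were expected, and its loop spanned 50 kb. Neither anchor of this loop overlapped Elk4, which lay within 10 kb of an anchor, and an anchor overlapped Mfsd4a. Elk1 met Araf, a kinase of the same pathway, at a loop of 120 kb on chromosome X. hCG replicate 1 had 14 contacts against 1.93 expected (5 kb bin), and hCG replicate 2 had 29 against 7.29 (10 kb bin). This loop also enclosed Timp1, a metalloproteinase inhibitor and AP-1 target. Elk3 met Lta4h with 23 contacts against 6.06 expected (10 kb bin) in hCG replicate 1 and 87 against 36.4 (25 kb bin) in hCG replicate 2. Of all protein-coding genes, 6.67% had an hCG-only loop, and this list was not tested against them.

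Of 13 AP-1 target genes, 11 had a loop (68.0% of all genes) and 5 had a loop of all 4 lists (36.5% of all genes). Timp1 was at an hCG-only loop, as above, and Cd44, the hyaluronan receptor gene, was inside a PMSG-only loop that spanned 325 kb. Its contact count was 110 and 81 in the PMSG libraries, where 39.4 and 31.9 were expected. Ptgs2, the prostaglandin synthase gene of ovulation, had 2 loops in every library and neither an hCG-only nor a PMSG-only loop. Genes with the same numbers of anchored loops as an AP-1 gene in the 4 libraries were too many to name: 18 for Fosl2, 26 for Fosb, 66 for Jun and 110 for Fos were at a distance of 0.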

How the data were processed

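The submitters' processing notes name BWA, Juicer and mm10. HiCCUPS of juicer_tools 1.22.01 made the lists, per the file headers. No source used here gives caller settings or read filters. Each sample has 1 deposited list, which merges loops called in bins of 5, 10 and 25 kb. The authors deposited the observed contact count of each loop's pixel as a whole number, and the expected contact signal from 4 neighbourhoods (donut, bottom left, horizontal, vertical). FDR values are deposited as q-values, all below 0.1. Contacts can hold PCR copies, so intervals cover counting error only.

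Samples were grouped by title. Genes came from RefSeq on GRCm38.p6 (21631 protein-coding genes), which gives gene ends and no exons, so anchors were not assigned to exons or introns. Positions are mm10, counted from 1. Connected sets of loops matching within 20 kb formed distinct loops. Contact counts were tested in edgeR 4.0.16 (quasi-likelihood, Benjamini-Hochberg over 1366 loops, threshold 0.05) in R 4.3.3, with DESeq2 1.42.0 as an alternative. Steps were tested on simulated data. Other alternatives were anchor distances of 5 and 20 kb, matching within 10 or 50 kb or by overlap, FDR at most 0.01, lists of equal length, other expectations, TMM scaling, a minimum of 20 contacts, identical pixels, a replicate block and leaving out each library. Python 3.11.15, numpy 2.4.6, pandas 2.3.3, scipy 1.17.1 and matplotlib 3.10.9 were used. All 8 genes were described, with every loop near a gene in 2 or more lists. Likeness between genes was the Euclidean distance over anchored loops per 1000 loops in the 4 libraries, with no name where more than 5 genes tied. The genes and lists were chosen with earlier results of these data known.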

Additional observations from a re-analysis of the deposited data

How the results depend on the processing

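The surplus of hCG loops per 1000 at the AP-1 genes was 0.335 with anchors within 5 kb and 0.401 within 20 kb. It was 0.467 with anchored loops only and 0.296 with FDR at most 0.01. With each library left out it ran from 0.309 to 0.488. Its sign could not change there, because both hCG values lay above both PMSG values. The numbers of hCG-only and PMSG-only loops ran from 3 to 7 and from 1 to 3 with a library left out, when classes rest on fewer lists by construction, and matching within 50 kb left 0 PMSG-only loops, because it joins the hCG-only and PMSG-only upstream loops of Fosl2. Where anchors had to overlap, the Fosl2 loop to its downstream site left the hCG-only class and the Fosb loop was no longer in all 4 lists. The difference in median log2 ratio was 0.12 with the vertical expectation and from -0.48 to -0.09 with a library left out, and that of median span from -87.5 to -27.5 kb. Over all 1366 loops, edgeR called 3 with the bottom-left expectation and from 0 to 12 with a library left out, and 0 in the main test. The cause of these differences was not tested. With the replicate number as a block, the log2 fold change was 0.27 at the Fos loop and -0.00080 at the Fosb loop, with 0 calls over all loops. At Fosb it ran from -0.27 to 0.38 with a library left out, and at Fos from 0.05 to 0.43. Deviations of same-numbered libraries had a correlation of -0.0084 over 1366 loops, so the numbers were not taken as pairs. Low contact counts in the smaller bins limit each single ratio.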
